A study of Mus musculus with 66 samples.

Results

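The insulin-like growth factor (IGF) system of the mouse testis was followed from birth to adulthood in 8 listed genes: the ligand gene Igf1, the receptor gene Igf1r, and the binding protein genes Igfbp2, Igfbp3, Igfbp4, Igfbp5, Igfbp6 and Igfbp7. Members were all probe sets whose annotation named 1 of these genes alone. The arrays carried 7 of the 8 genes, on 17 of 36701 probe sets that were not controls, or 7 of 15964 genes in all. Igfbp5 counts as absent, because its name stands only beside that of another gene, on 1 probe set that was not used. Of the 17 probe sets, 16 reached a signal of 50 on at least 2 arrays of their type and were tested. The exception was 101570_at of Igfbp4, whose signal stayed between 2.3 and 30.9.

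The samples were whole testes of BL/6-129 mice at 11 ages: days 0, 3, 6, 8, 10, 14, 18, 20, 30, 35 and 56 after birth. No treatment or mutation is named for any age, and all ages share the strain background. Each age had 2 numbered samples, and each was hybridised to 3 types of oligonucleotide array, here called A, B and C, which gives 66 arrays. Whether the 2 samples of an age came from separate mice or from pooled ones is not stated, so the p-values measure only the spread between these samples, which may be technical.

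IGF1 and its relative IGF2 are secreted growth factors that activate the IGF1 receptor, a tyrosine kinase that signals through adaptor proteins to PI3 kinase and AKT. IGFBP2 to IGFBP6 bind the ligands with high affinity, hold them outside the cell, and release them when proteases cut the binding protein, while IGFBP7 binds them weakly. In the mouse testis, signalling through the insulin and IGF receptors is known for setting the number of Sertoli cells, the somatic cells that nurse the germ cells, and for Leydig cell steroid production.

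Most of the system declined with age. By day 56, 6 of the 7 genes were called lower than at day 0 and none was called higher: Igf1, Igf1r, Igfbp2, Igfbp3, Igfbp4 and Igfbp6. Over all 26941 probe sets tested, 17.3% were called lower in that comparison. By the probe set with the highest mean signal, the log2 change was largest in Igfbp4 (-3.77 ± 0.33, SE), Igf1 (-3.25 ± 0.32), Igf1r (-3.15 ± 0.35) and Igfbp3 (-2.96 ± 0.39). It was smaller in Igfbp6 (-1.27 ± 0.30) and Igfbp2 (-1.20 ± 0.35). The order of Igfbp4, Igf1, Igf1r and Igfbp3 was not tested and depended on the processing. Over 10 alternative settings Igfbp4 ranged from -4.72 to -2.55 and Igfbp3 from -3.85 to -1.86. Igf1 ranged from -3.55 to -3.00 and Igf1r from -3.27 to -2.81. The order also depended on the probe set, with -3.84 for 95082_at of Igfbp3 and no call for 94222_at of Igfbp4. The remaining probe set of Igfbp4, 101570_at, was below the signal filter. The change of Igfbp7 was -0.97 ± 0.44 with an adjusted p of 0.0999. A change was called at an adjusted p under 0.05 and at least 2-fold, on the scale log2(signal + 16), with limma and adjustment over all probe sets tested. Every array was scaled by the authors to the same mean, so a lower signal is lower relative to the rest of the array, and in whole testis fewer cells of a type and less RNA per cell cannot be told apart.

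The promoters of the genes that carry the result are printed here because Igf1, Igf1r, Igfbp3 and Igfbp4 were each called lower than day 0 at every measured day from 18 on, while Igfbp6 was called lower only from day 30 on. The sequences are the 250 bases before the start site in RefSeq's mouse annotation, build GRCm38.p6, in which all 7 genes were matched. Igf1 lies at chr10:87860861-87861110 on the plus strand, Igf1r at chr7:67952007-67952256 (plus), Igfbp3 at chr11:7213924-7214173 (minus), Igfbp4 at chr11:99040994-99041243 (plus) and Igfbp6 at chr15:102143936-102144185 (plus). Capitals mark exact matches on either strand to any of 4 motifs. They are TATAAA, the core of the TATA box, and CCAAT, the core of the CCAAT box. The other 2 are GGGCGG, the GC box, and an element read by orphan nuclear receptors such as Nr5a1, AAGGTCA.
Igf1: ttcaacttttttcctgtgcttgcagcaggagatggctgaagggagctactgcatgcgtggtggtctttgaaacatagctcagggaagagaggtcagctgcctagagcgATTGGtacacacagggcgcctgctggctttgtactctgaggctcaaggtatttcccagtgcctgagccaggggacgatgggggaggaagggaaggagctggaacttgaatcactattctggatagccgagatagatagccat
Igf1r: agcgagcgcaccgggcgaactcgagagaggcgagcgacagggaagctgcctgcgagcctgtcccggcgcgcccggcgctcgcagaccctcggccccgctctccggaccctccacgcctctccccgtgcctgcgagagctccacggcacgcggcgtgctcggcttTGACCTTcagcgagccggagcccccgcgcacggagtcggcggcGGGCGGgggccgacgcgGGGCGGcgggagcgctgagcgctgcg
Igfbp3: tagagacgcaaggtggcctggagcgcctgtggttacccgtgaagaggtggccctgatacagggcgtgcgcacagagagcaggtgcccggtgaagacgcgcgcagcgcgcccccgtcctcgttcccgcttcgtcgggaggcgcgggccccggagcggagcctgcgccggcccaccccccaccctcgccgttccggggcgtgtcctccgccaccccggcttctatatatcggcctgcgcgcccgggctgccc
Igfbp4: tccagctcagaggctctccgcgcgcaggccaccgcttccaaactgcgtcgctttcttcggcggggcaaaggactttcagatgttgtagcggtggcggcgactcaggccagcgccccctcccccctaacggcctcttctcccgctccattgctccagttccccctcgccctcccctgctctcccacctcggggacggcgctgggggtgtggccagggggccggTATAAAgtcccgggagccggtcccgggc
Igfbp6: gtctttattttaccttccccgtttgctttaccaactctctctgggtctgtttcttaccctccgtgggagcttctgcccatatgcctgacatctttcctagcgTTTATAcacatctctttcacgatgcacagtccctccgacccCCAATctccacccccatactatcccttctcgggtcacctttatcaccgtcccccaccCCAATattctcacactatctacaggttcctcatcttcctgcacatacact
The Igf1 window held 1 CCAAT match, 142 bases upstream, and 52.8% G or C. The Igf1r window held 2 GC boxes and 1 AAGGTCA match, 86 bases upstream, and was 77.6% G or C. Igfbp4 had a TATAAA match 28 bases upstream (69.2% G or C), Igfbp6 had 1 TATAAA match 148 bases upstream and 2 CCAAT matches (49.6% G or C), and Igfbp3 had no match to any of the 4 motifs (73.2% G or C). No marked match overlapped another. Among 32851 promoter windows of the same length, 12.4% held TATAAA, 33.9% CCAAT, 32.7% GGGCGG and 4.08% AAGGTCA. No motif was shared by all 5 windows.

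Markers of the labelled tissue were present. The summed signal of 8 spermatid markers was 50943 to 55614 at day 56, against 375 to 422 at day 0. That of 7 spermatocyte markers was 20986 to 21535, against 654 to 794. Before any spermatid is due, 2 samples stood apart from the other sample of their day: the spermatid sum was 982 in sample 1 of day 3, against 372 in sample 2, and 1499 in sample 2 of day 6, against 295 in sample 1. Most of each difference was in the protamine gene Prm1 (540.1 against 5.5 at day 3, and 759 against 18 at day 6). Without either sample the counts of called IGF genes in each window below were as with all samples, and the F-test count was 6 without the first and 5 without the second, where Igfbp2 was lost. Both carried epididymis markers, Lcn5 and Adam7, were below 50 in both samples at every age, with sums of 6 to 47.6. Same-day samples correlated at 0.889 to 0.976 on type A, 0.804 to 0.95 on type B and 0.78 to 0.941 on type C, lowest at day 0 on each type. The share of probe sets at or above 50 was 46.0% to 63.1% per array.

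**Figure D1:**
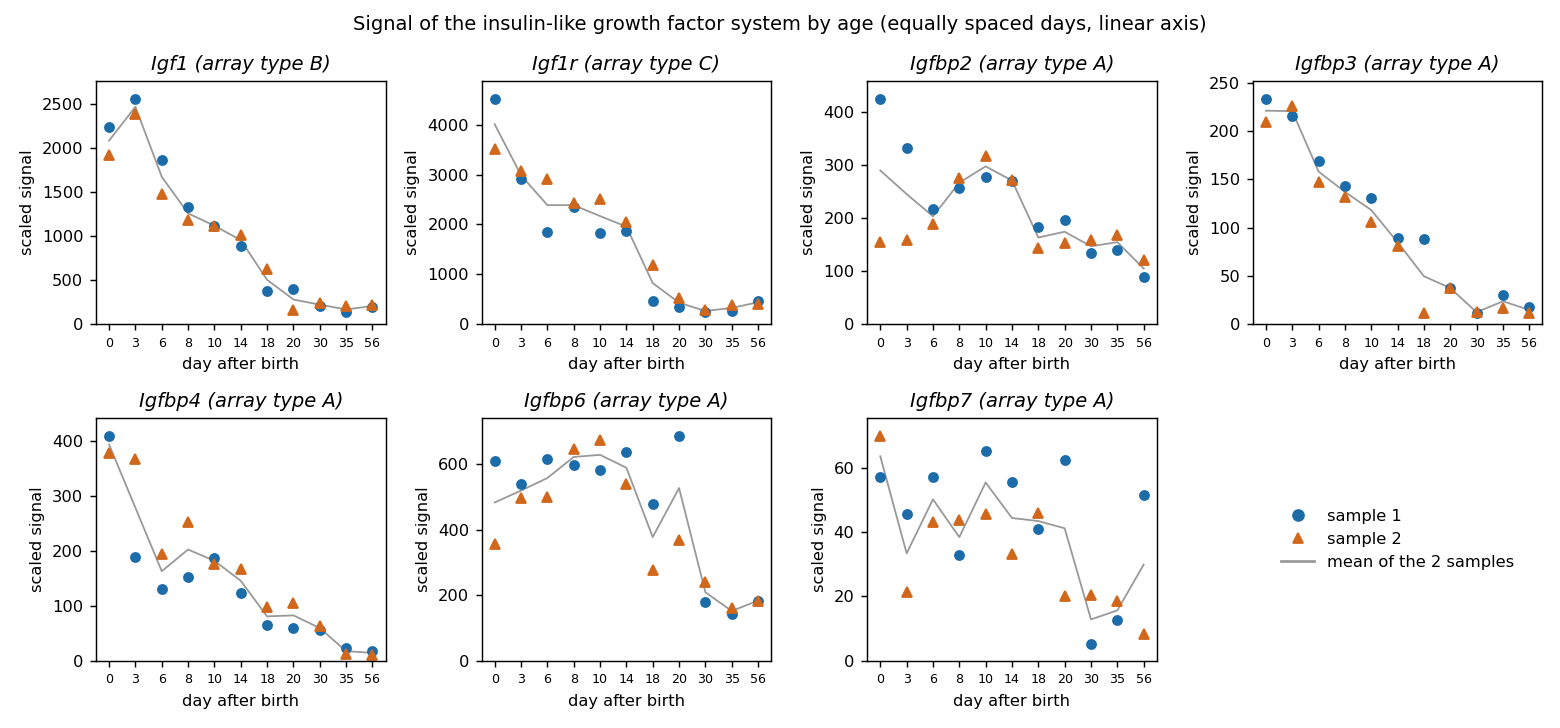
Scaled array signal (linear axis, arbitrary units) of the probe set with the highest mean signal of each gene against the day after birth (days equally spaced). Points are the 2 samples of a day and the line is their mean. Igf1 gave 198 and 211 at day 56, against 2243 and 1926 at day 0, while Igfbp6 stayed between 277 and 687 up to day 20.

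Igf1, the secreted ligand, was measured by 4 probe sets, and the one with the highest mean signal, 107959_at on type B, stands for the gene. At days 0, 3, 6, 8, 10 and 14 the samples gave 2243 and 1926, 2557 and 2381, 1865 and 1481, 1331 and 1184, 1116 and 1117, and 892 and 1016. At days 18, 20, 30, 35 and 56 they gave 380.2 and 624, 398 and 159, 199.8 and 240, 131 and 199, and 198 and 211. Every sample up to day 14 was above every sample from day 18 on, and the highest day mean was at day 3. The signal varied with age (moderated F-test, adjusted p = 1.64e-08) and was called lower than day 0 at each day from 14 on. It fell by 1.85 ± 0.32 at day 20 against day 14 (398 and 159 against 892 and 1016, adjusted p = 0.000836). Without sample 2 of day 20, the lower of the pair, this change was -1.23, and without sample 1 it was -2.47, both still called. No step between neighbouring measured days passed the test for Igf1, including day 20 against day 18 (-0.90 ± 0.32, adjusted p = 0.442). Between days 20 and 56 the samples lay between 131 and 398, and neither day 35 against day 20 nor day 56 against day 35 was called.

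The other probe sets of Igf1 did not all follow. On type A, 95546_g_at gave 68.9 and 75.4 at day 56, against 244 and 216 at day 0 (log2 change -1.48 ± 0.31, adjusted p = 0.00109), and its lowest day mean was at day 20 (23.8 and 30). On type B, 115861_at gave 29.2 and 39.9 at day 56, against 167 and 70.4 at day 0 (-1.32 ± 0.42, adjusted p = 0.0184), and its highest values were at day 3 (248 and 323). Both were also called lower at day 20 against day 14, by 1.01 and 1.50 on the log2 scale. The first call was lost without sample 1 of day 14 (-0.54), sample 1 of day 20 (-0.91) or sample 2 of day 20 (-1.12). It was also lost with 64 added to the signal (-0.58), no filter on signal, quantile normalization or scaling to the median. The second call was lost without sample 2 of day 14 (-1.20) or sample 2 of day 20 (-1.11), and with 64 added (-0.91). Without sample 1 of day 0 the change of 115861_at at day 56 was -0.78 (adjusted p = 0.226). In contrast, 95545_at on type A lay between 196 and 400.1 on all 22 arrays, with 273 and 281 at day 56, against 207 and 328 at day 0 (0.08 ± 0.25), and its F-test gave an adjusted p of 0.937. The day means of 107959_at correlated with those of 115861_at (r = 0.95) and 95546_g_at (r = 0.88), and at r = -0.21 with those of 95545_at, over 11 days each and as a description without a test. The annotation gives the same source sequence for 95545_at and 95546_g_at, although only the latter was called lower. Which transcripts the 4 probe sets read was not tested.

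Igf1r, the receptor through which both IGFs signal, was likewise measured by 4 probe sets, with 129046_f_at on type C as the brightest. At days 0, 3, 6, 8, 10 and 14 the samples gave 4517 and 3504, 2907 and 3063, 1852 and 2919.7, 2345 and 2428, 1822 and 2511, and 1859 and 2053. At days 18, 20, 30, 35 and 56 they gave 462 and 1181, 341 and 515, 236 and 285, 262 and 383, and 468 and 404. All samples up to day 14 were above all samples from day 18 on, with 1822 as the lowest of the early days and 1181 as the highest of the late ones. The F-test gave an adjusted p of 6.26e-08, and the signal was called lower than day 0 from day 18 on. It fell by 2.18 ± 0.35 at day 20 against day 14 (adjusted p = 0.000461), with 341 and 515 against 1859 and 2053. Most of that lay in the step to day 18, which was called too (-1.38 ± 0.35, 462 and 1181 against 1859 and 2053). The step was not called without sample 1 of day 18 (-0.72, adjusted p = 0.348), sample 1 of day 14 (-1.45, adjusted p = 0.141) or sample 2 of day 14 (-1.31, adjusted p = 0.217). The f in this probe set's name is given to sets whose probes match other sequences as well.

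Among the other probe sets of Igf1r, 106956_at on type B gave 60.6 and 62.8 at day 56, against 811 and 282 at day 0 (-2.67 ± 0.48, adjusted p = 0.000239). On the same type 116112_at gave 21.4 and 16, against 228 and 68.7 (-2.05 ± 0.59, adjusted p = 0.0107), but without sample 1 of day 0 it was -1.29 (adjusted p = 0.154) and without sample 2 of day 56 -1.94 (adjusted p = 0.0635). On type A, 102224_at gave 33.1 and 109.9 at day 56, against 63.7 and 463 at day 0, and was not called (-1.31 ± 0.60, adjusted p = 0.1). None of these 3 probe sets was called at day 20 against day 14. In that window 106956_at gave 108.8 and 86, against 360.4 and 167.1. The signals were 45.5 and 11.5, against 111.7 and 48.6, for 116112_at, and 59 and 136.5, against 151.3 and 255.1, for 102224_at. The wide pairs of day 0 ran in opposite directions on different array types. Over the 8 days from 0 to 20, sample 1 was the higher of the pair on 7 days for 106956_at and on 8 for 116112_at, both on type B, but on 1 day for 102224_at (type A) and on 1 for 129046_f_at (type C). The ratio of 3' to 5' actin probe sets, a measure of RNA integrity, was higher in sample 1 on 6 of these days on type B, on 2 on type A and on 5 on type C. Its range over both samples was 1.24 to 1.59 on type B, 1.12 to 1.78 on type A and 1.20 to 2.01 on type C, and its part in the Igf1r values was not tested. The day means of the 3 other probe sets correlated with those of 129046_f_at at r between 0.84 and 0.94 over the 11 days.

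**Figure D2:**
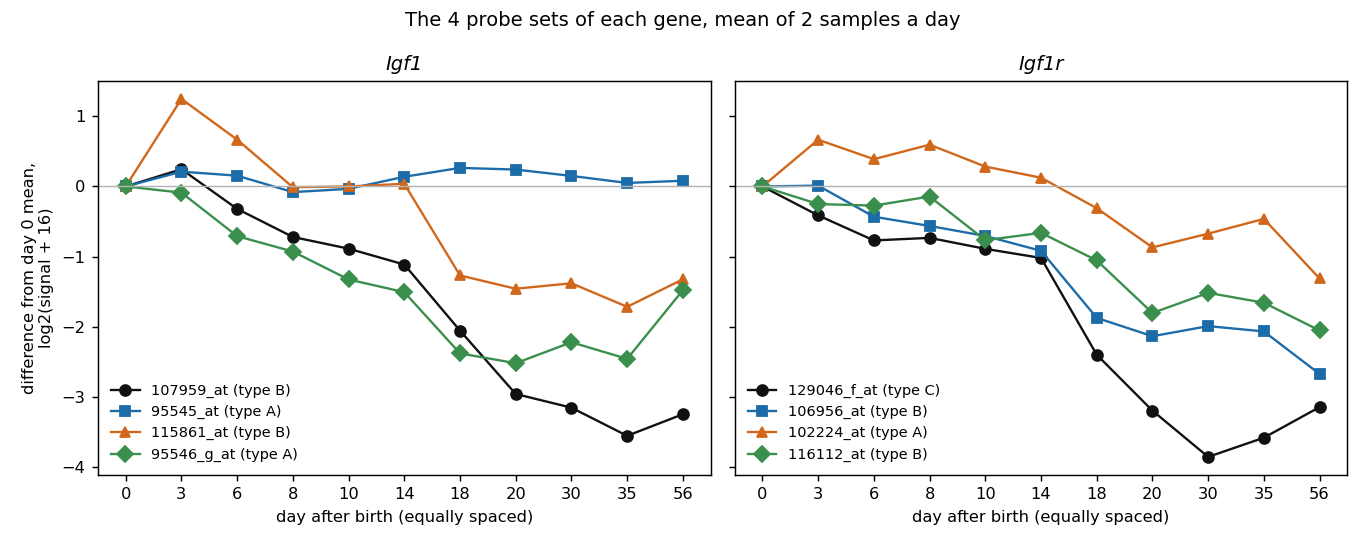
Difference of each day's mean log2(signal + 16) from the day 0 mean of the same probe set, for the 4 probe sets of Igf1 (left) and the 4 of Igf1r (right), against the day after birth (days equally spaced). Each line is 1 probe set and each point the mean of 2 samples. For Igf1, 95545_at stays near 0 (0.08 at day 56) while 107959_at reaches -3.25; all 4 Igf1r lines end below 0.

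Igfbp3, the main carrier of IGFs in blood, and Igfbp4, a binding protein known mainly as an inhibitor of IGF action, had the largest changes at day 56 among the binding proteins. For Igfbp3, 95083_at on type A gave 233 and 209, 216 and 226, 169 and 147, 143 and 131, 130.2 and 106, and 88.8 and 80.7 at days 0, 3, 6, 8, 10 and 14. It gave 87.8 and 11.2, 37.1 and 37.4, 11.5 and 12.9, 30.2 and 16.9, and 17.6 and 11.7 at days 18, 20, 30, 35 and 56. The pairs up to day 14 were close to each other, while those of day 18 lay far apart, 1 near the day 14 level and 1 near the adult level. The F-test gave an adjusted p of 5.51e-06, and the gene was called lower than day 0 from day 18 on. At day 56 the signal was 17.6 and 11.7, against 233 and 209 at day 0 (-2.96 ± 0.39, adjusted p = 1.23e-05). No window between day 8 and day 56 and no step between neighbouring days was called. A second probe set of the same type, 95082_at, gave 7.7 and 5.7 at day 56, against 353 and 271 at day 0 (-3.84 ± 0.35, adjusted p = 1.5e-07), and its day means correlated with those of 95083_at at r = 0.98 over 11 days. It was already called lower at day 8 against day 0 (108 and 96.6 against 353 and 271, -1.46 ± 0.35, adjusted p = 0.0393). It was also called at day 20 against day 14 (-1.08 ± 0.35, adjusted p = 0.0465). Both calls were lost when single samples were left out: without sample 1 of day 0 the first was -1.28 (adjusted p = 0.136) and without sample 2 of day 20 the second was -0.97 (adjusted p = 0.179).

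For Igfbp4, 101571_g_at on type A gave 409 and 377, 189 and 367, 131 and 195, 152 and 253, 188 and 176, and 124 and 167 at days 0, 3, 6, 8, 10 and 14. It gave 64.4 and 96.8, 60.1 and 105, 55.6 and 63.2, 22.5 and 12.1, and 17.5 and 11 at days 18, 20, 30, 35 and 56. The signal was called lower than day 0 from day 14 on, and the F-test gave an adjusted p of 3.58e-07. It fell by 1.54 ± 0.33 at day 35 against day 20 (22.5 and 12.1 against 60.1 and 105, adjusted p = 0.00566). That call was lost without sample 2 of day 20 (-1.21, adjusted p = 0.0615), without sample 2 of day 35 (-1.32, adjusted p = 0.0848) and with 64 added to the signal in place of 16 (-0.83). At day 56 the signal was 17.5 and 11, against 409 and 377 at day 0 (-3.77 ± 0.33, adjusted p = 8.44e-08), and all samples of days 35 and 56 were below all samples of the earlier days. The late signals of Igfbp3 and Igfbp4 lay below 50, so their fold depends on the constant added: with 1 and 64 in place of 16, the change at day 56 was -3.85 and -1.86 for Igfbp3 and -4.72 and -2.55 for Igfbp4, all called. A second probe set of Igfbp4, 94222_at, gave 32.8 and 67.4 at day 56, against 64.7 and 111 at day 0, with no call at any day against day 0 and an F-test at an adjusted p of 0.123. The remaining one, 101570_at, is annotated with the same source sequence as 101571_g_at, but gave only 4.8 and 16.3 at day 0. Why these probe sets differed was not tested. In RefSeq's gene order Igfbp4 lies between Top2a and Tns4 on chromosome 11, and Igfbp3 lies beside Igfbp1 on the same chromosome.

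Igfbp6, a binding protein that prefers IGF2 over IGF1, was not called lower than day 0 until day 30. Its single probe set, 103904_at on type A, gave 610.2 and 356, 541 and 498, 615 and 501, 599 and 645, 584 and 674, and 638 and 540.3 at days 0, 3, 6, 8, 10 and 14. It gave 478 and 277, 687 and 367, 178 and 239.8, 144 and 159.9, and 183 and 184 at days 18, 20, 30, 35 and 56. All samples from day 30 on were below all earlier ones, with 239.8 as the highest late value and 277 as the lowest early one. The F-test gave an adjusted p of 6.43e-05. The signal fell by 1.63 ± 0.30 at day 35 against day 20 (144 and 159.9 against 687 and 367, adjusted p = 0.00168), and this call held without any 1 sample (-2.07 to -1.19). The step from day 20 to the next measured day, 30, was called as well (-1.22 ± 0.30, 178 and 239.8 against 687 and 367), but not without sample 1 of day 20 (-0.78, adjusted p = 0.168), sample 1 of day 30 (-1.02, adjusted p = 0.213) or sample 2 of day 30 (-1.42, adjusted p = 0.0513). At day 56 it was 183 and 184, against 610.2 and 356 at day 0 (-1.27 ± 0.30, adjusted p = 0.00262). Without sample 1 of day 0 that change was -0.90, under the 2-fold threshold.

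Igfbp2, a binding protein of fetal and young tissues that also binds cell surface integrins, had wide pairs in the youngest testes. Its brighter probe set, 98627_at on type A, gave 425 and 155, 332 and 158, 217 and 189.6, 257 and 277, 278 and 317, and 269 and 273 at days 0, 3, 6, 8, 10 and 14. It gave 184 and 143, 196 and 153, 134 and 159, 141 and 169, and 88 and 122 at days 18, 20, 30, 35 and 56. Sample 2 of days 0 and 3 was lower than any sample of days 6 to 14, while sample 1 of those days was the highest of all. The F-test passed narrowly (adjusted p = 0.0483) and was under 0.05 in 10 of 32 alternative settings or subsets. The signal was called lower only at day 56 (88 and 122 against 425 and 155 at day 0, -1.20 ± 0.35, adjusted p = 0.0128). Without sample 1 of day 0 the change was -0.52 (adjusted p = 0.253), and without sample 1 of day 56 it was -0.996 (adjusted p = 0.108). With 64 added to the signal it was -0.96, and with quantile normalization -0.996, both just under 2-fold. The other probe set, 169248_r_at on type C, lay between 2 and 90.4 and passed no test (F-test adjusted p = 0.496).

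Igfbp7, a secreted matrix protein of blood vessels that binds IGFs weakly, was near the limit of measurement. Its probe set 160527_at on type A reached a signal of 50 on 7 of 22 arrays and gave 57.2 and 70, 45.5 and 21.3, 57.2 and 43.2, 33 and 43.9, 65.2 and 45.7, and 55.5 and 33.3 at days 0, 3, 6, 8, 10 and 14. It gave 41 and 45.9, 62.4 and 20, 5.3 and 20.4, 12.6 and 18.7, and 51.5 and 8.3 at days 18, 20, 30, 35 and 56. Both samples of days 30 and 35 were at or below 20.4, whereas the pair of day 56 was split between 51.5 and 8.3. The F-test gave an adjusted p of 0.12. It was called lower than day 0 at day 30 (-1.51) and day 35 (-1.33) but not at day 56. The day 30 call was lost without sample 2 of day 0 (-1.39, adjusted p = 0.0672) or sample 1 of day 30 (-1.12, adjusted p = 0.146), and the day 35 call was lost without any 1 of the 4 samples of days 0 and 35 (-1.47 to -1.19). Both were lost with 64 added to the signal (-0.74 and -0.68). Without sample 1 of day 56 the change at that day was -1.71 and was called (adjusted p = 0.0102).

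**Figure D3:**
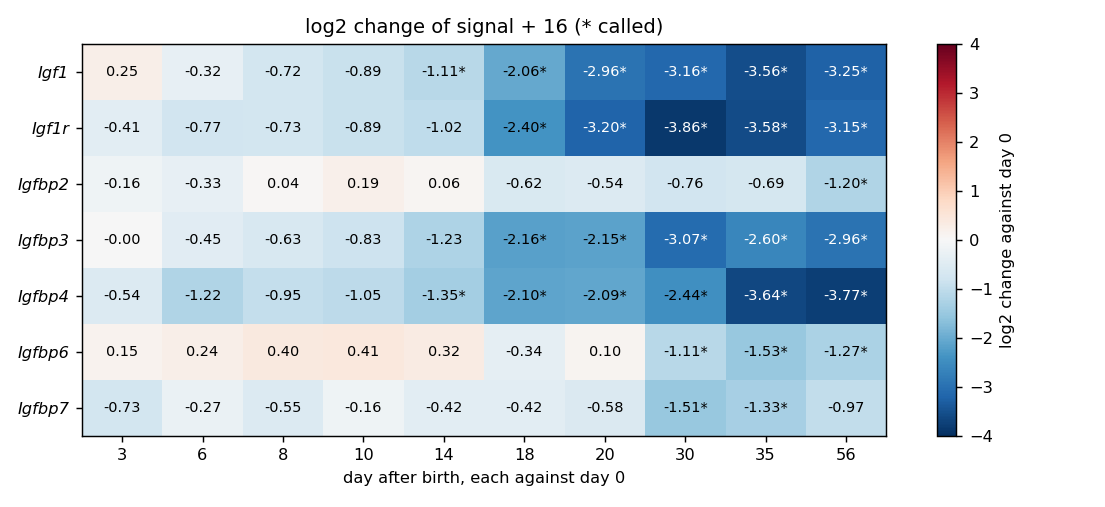
Log2 change of signal + 16 of each gene's brightest probe set at each day against day 0, with the value in each cell and an asterisk where it was called. Igf1 and Igfbp4 are called from day 14, Igf1r and Igfbp3 from day 18, Igfbp6 from day 30, Igfbp2 at day 56 alone and Igfbp7 at days 30 and 35.

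The members were first called at different ages, and whether their ages differed was not tested. By the F-test over all days, 6 of the 7 genes varied with age, with 45% of all probe sets tested as the background. Of the 16 probe sets tested, 11 passed the F-test, and 11 were called lower at day 56 against day 0. Against day 0, limma called no gene by its brightest probe set at days 3, 6, 8 or 10. At these days 0, 2, 3 and 3 of the 7 had an unadjusted p under 0.05. The shares of all probe sets called lower at these days were 0.00742%, 0.241%, 0.824% and 1.47%. Among the other probe sets, 95082_at of Igfbp3 was called lower at every day from 8 on, and 95546_g_at of Igf1 at every day from 10 on. By their brightest probe sets, Igf1 and Igfbp4 were called lower at day 14 (2 of 7, with 3.52% of all probe sets). Igf1r and Igfbp3 joined them at day 18 (4 of 7, 8.58%), and the same 4 genes were called at day 20 (11.3%). With Igfbp6 and Igfbp7 there were 6 of 7 at day 30 (16.3%), and the same 6 at day 35 (17.3%). These comparisons share the day 0 samples, whose pairs were wide for Igfbp2 and Igfbp6.

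Between later and earlier ages, the calls of the members' brightest probe sets fell in 2 windows, apart from day 56 against day 0. The counts in this paragraph use that probe set of each gene. Among the other probe sets, 95082_at of Igfbp3 was called lower at day 8 against day 0 (-1.46), a call lost when single samples were left out. At day 14 against day 8 no member was called and none had an unadjusted p under 0.05 in limma (0.189% of all probe sets called lower), and the median change of the 7 genes was -0.29, with -0.03 over all probe sets. At day 20 against day 14 the ligand and its receptor were called, 2 of 7 (6.37% of all probe sets), and the medians were -0.74 and -0.13. At day 35 against day 20 the called members were Igfbp4 and Igfbp6, 2 of 7 (2.7%), and the medians were -0.60 and -0.11. At day 56 against day 35 no member was called or had an unadjusted p under 0.05 in limma (0.0111%). Among the 10 steps between neighbouring measured days, Igf1r was called at day 18 against day 14 (1 of 7, with 0.46% of all probe sets) and Igfbp6 at day 30 against day 20 (1 of 7, 1.34%). At day 3 against day 0 and in the 6 other steps up to day 35 limma called no member, and at most 2 of 7 had an unadjusted p under 0.05 in a step. In those 6 steps 0.0817% of probe sets were called in either direction. All other neighbouring days of the members were not told apart by the test. Whether the windows differed from each other for a given gene was not tested.

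The profiles of the members' brightest probe sets were alike, but not those of all their probe sets. The day means of the 7 brightest probe sets correlated at r between 0.68 (Igfbp2 with Igfbp7) and 0.98 (Igf1 with Igf1r) in 21 pairs over 11 days, with a median of 0.83. In contrast, 95545_at of Igf1 correlated with the 7 at r between -0.40 (Igfbp2) and -0.08 (Igfbp6). High values were also met outside the system: between 0.428% (Igfbp7) and 17.2% (Igfbp3) of the probe sets compared on the same array type correlated with a member at r over 0.9. Those compared named 1 other gene, passed the filter and had a mean signal of at least 125. Clone-named loci were left out. The share at lower values, such as the median of the pairs, was not counted. The genes closest to Igf1 were Xiap, an inhibitor of apoptosis (r = 0.996), Cald1, the actin-binding caldesmon (0.992), and Nfia, a transcription factor (0.991). Closest to Igf1r were Grasp, Yeats2 and Armcx4 (0.991 to 0.988). Igfbp3 was closest to Thra, a thyroid hormone receptor (0.996), Pmp22, a membrane protein of myelin (0.996), and Col4a1, a collagen of basement membranes (0.994). Igfbp4 was closest to Echs1, Polr2m and Trip6 (0.982 to 0.976), and Igfbp6 to Siva1, Phf23 and Nhp2 (0.992 to 0.984). Igfbp2 was closest to Slc44a2, a choline transporter (0.977), Emc10 (0.962) and Hmgcs1, an enzyme of cholesterol synthesis (0.960). For Igfbp7 the closest were Commd4, Map3k3 and Tspo (0.960 to 0.944). These correlations are descriptions across day means that share libraries.

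Other genes of the pathway were taken from a list of 63, of which 54 were carried alone by a probe set and 46 were tested. By the F-test 30 of the 46 varied with age (45% of all probe sets). At day 56 against day 0, 21 were called lower and 1 higher, and their median change was -0.81, with -0.22 over all probe sets. Of all 26941 probe sets, 17.3% were called lower and 3372 higher there. At day 20 against day 14, 8 were called lower and none higher (6.37% of all probe sets lower). At day 35 against day 20 these counts were 2 and 0 (2.7% lower), and at day 14 against day 8 they were 3 and 0 (0.189% lower). At day 56 against day 35 limma called no gene, with 4 of 46 at an unadjusted p under 0.05 (0.0111% of all probe sets called lower). The same shares are the background for the counts called lower in the gene groups and cell type markers below. For counts called higher, 268 of all 26941 probe sets were higher at day 8 against day 0. The number was 1425 at day 20 against day 14 and 1171 at day 35 against day 20.

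Among the other ligands and receptors, Igf2, the fetal IGF and an imprinted gene, gave 107 and 230.2 at day 56, against 3930 and 3491 at day 0. Both samples of day 56 lay far below both of day 0, although the day 56 pair was wide. The change (-4.42 ± 0.32, adjusted p = 9.16e-09) was larger than that of any member's brightest probe set, a difference that was not tested. Unlike the members' brightest probe sets, Igf2 was called lower at day 8 against day 0 (-1.26, adjusted p = 0.0496) and at day 14 against day 8 (-1.46, adjusted p = 0.032). It was called again at day 35 against day 20 (-1.07, adjusted p = 0.0447). Igf2r, the imprinted receptor that takes IGF2 up for degradation, gave 69.2 and 50 at day 56, against 285 and 299 at day 0 (-2.04 ± 0.22, adjusted p = 1.14e-06). Insr, the insulin receptor, gave 298 and 386, against 265 and 276, and did not pass the F-test (adjusted p = 0.783). Ins2, an insulin gene, reached the filter of 50 on 4 arrays alone, with 59.3 and 59.3 at day 8 and 76.5 and 76.3 at day 10. It was tested only because of these days, and its calls at day 8 against day 0 (3.6 and 11.4) and at day 14 (11.9 and 14.7) against day 8 set values above the filter against values far below it, so no fold is given. The call at day 14 is 1 of the 3 counted above. Of the other carriers and binding proteins, Igfbp1, Igfals and Igfbpl1 were below the signal filter.

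Proteases that cut binding proteins, with their inhibitors, had 7 tested genes, of which 3 were lower at day 56. Adam12 gave 12.5 and 24.9 at day 56, against 103 and 176 at day 0 (-2.15 ± 0.29), and Htra1, which stayed bright, gave 1723 and 1678, against 3056 and 3955 (-1.03 ± 0.24). The lysosomal protease Ctsd was lower too (-1.74 ± 0.33), with a wide pair of 1167 and 417 at day 0. Pappa, the protease that cuts IGFBP4, gave 24.5 and 63.7 at day 56, against 58.1 and 51.6 at day 0, and passed no test (F-test adjusted p = 0.141). Its inhibitor Stc2 gave 81.9 and 23.9, against 29.6 and 77.2, and did not pass either (0.267).

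Receptor adaptors had 12 tested genes, of which 6 were lower at day 56 and none higher. Socs2, a feedback inhibitor of growth hormone signalling, gave 31.9 and 28.6 at day 56, against 625 and 713 at day 0 (-3.89 ± 0.24, adjusted p = 1.23e-09). It fell by 1.92 at day 14 against day 8 (80.8 and 81 against 366 and 335, adjusted p = 0.000249). Irs1, the docking protein of the insulin and IGF1 receptors, gave 36.6 and 53.2 at day 56, against 301 and 324 at day 0 (-2.44 ± 0.36, adjusted p = 3.2e-05). Shc1 (-1.99), Gab1 (-1.53), Grb7 (-1.27) and Sh2b1 (-1.23, with no F-test call, adjusted p = 0.589) were the others. Grb10, an imprinted inhibitor of the insulin and IGF1 receptors, gave 254 and 443 at day 56, against 314 and 405 at day 0, and did not pass.

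The PI3 kinase and AKT branch had 17 tested genes, with 7 lower and 1 higher at day 56. Akt1, the kinase at its centre, gave 91.2 and 86.6 at day 56, against 577 and 470.3 at day 0 (-2.36 ± 0.22, adjusted p = 1.61e-07). Pik3r1, a regulatory subunit of PI3 kinase, gave 114 and 105, against 1016 and 433 (-2.44 ± 0.49, adjusted p = 0.000671). Akt2 (-1.90), Eif4ebp1 (-1.77), Inppl1 (-1.22), Gsk3b (-1.13) and Foxo3 (-1.08) were also lower. Mtor, the growth-regulating kinase, was the 1 gene of the pathway list that was called higher at day 56: it gave 709.8 and 786, against 177 and 160 at day 0 (2.05 ± 0.20, adjusted p = 3.1e-07). Neither of the Igf2 mRNA binding proteins tested was called by limma or had an unadjusted p under 0.05 at day 56: Igf2bp1 gave 49.5 and 42.6, against 24.6 and 87.3, and Igf2bp3 gave 521 and 491, against 364 and 472. In the growth hormone arm, which drives Igf1 in liver, 3 of 4 genes were lower at day 56: Stat5b (-2.19 ± 0.39), Jak2 (-1.11 ± 0.30) and the receptor Ghr (-1.07 ± 0.30). Ghr gave 7 and 22 at day 56, against 29.6 and 68.9 at day 0. All but the last of these values were under 50, so its fold depends on the constant added.

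At day 20 against day 14, when Igf1 and Igf1r were called, the pathway genes called lower were Igf2r, Adam9, Adam12, Grb7, Sos1, Pik3r1, Jak2 and Stat5b. Igf2r gave 68.9 and 82.5 at day 20, against 175 and 209.7 at day 14 (-1.18 ± 0.22, adjusted p = 0.00171). Pik3r1 gave 129 and 120.1, against 305 and 485 (-1.51 ± 0.49, adjusted p = 0.0456). At day 35 against day 20, when Igfbp4 and Igfbp6 were called, these were Igf2 and Akt2, and Akt2 gave 178 and 169.7, against 449 and 354 (-1.13 ± 0.26, adjusted p = 0.011).

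**Figure D4:**
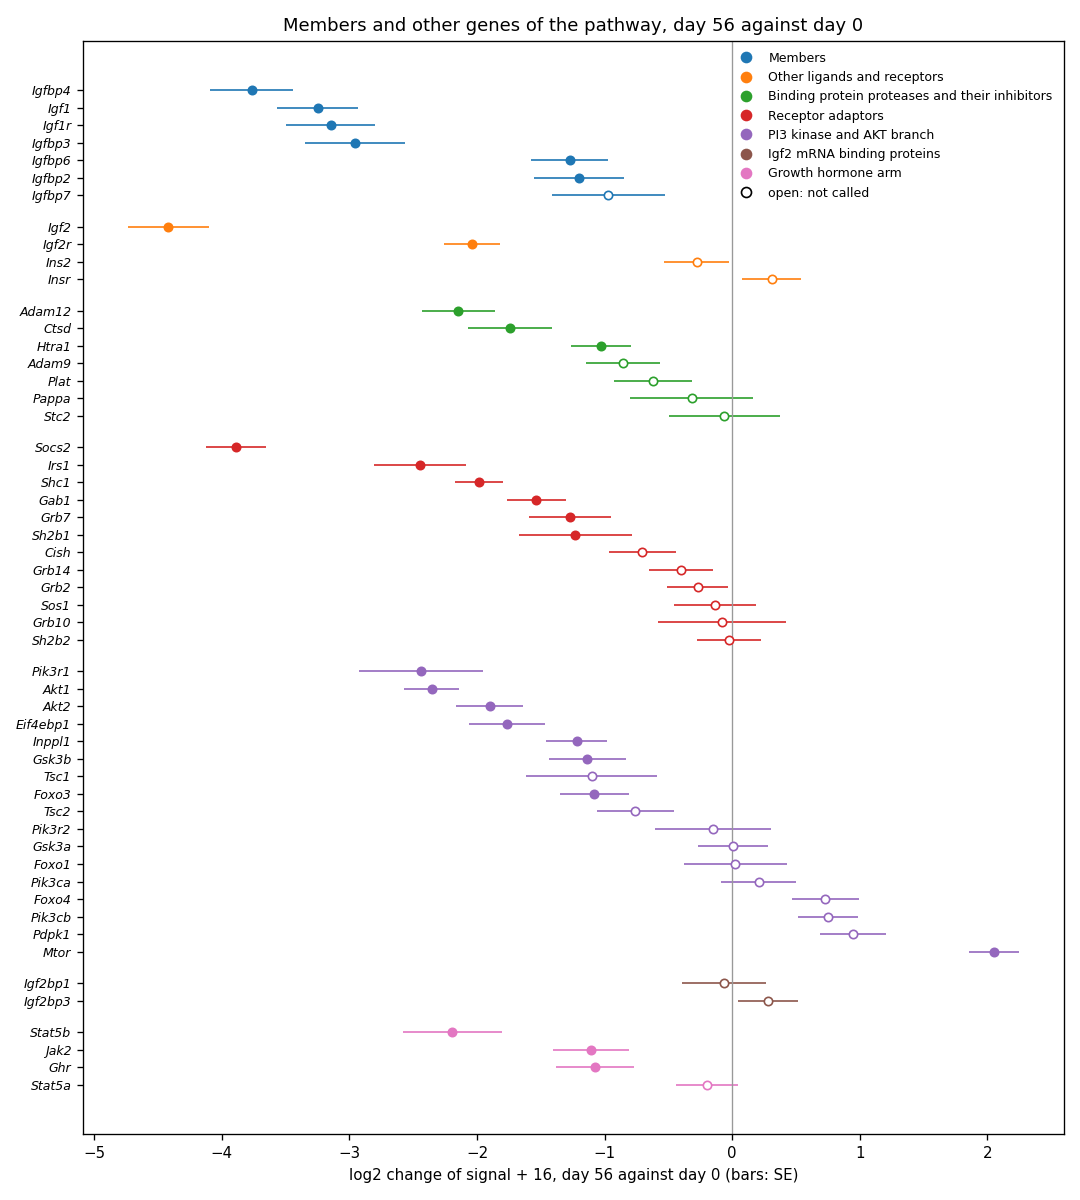
Log2 change of signal + 16 at day 56 against day 0 for the 7 members (top) and 46 other genes of the pathway, grouped by role, with bars for the SE of the limma fit. Filled points were called and open points were not. Most filled points lie left of 0, from -4.42 (Igf2) to -1.03 (Htra1), and Mtor at 2.05 lies right of it.

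Markers of the testis cell types moved in some of the same windows and not in others. All 7 fibroblast and matrix markers were lower at day 56 against day 0 (median -3.08), and 5 of 7 were lower at day 20 against day 14, when the ligand and receptor were called. Their summed signal was 13363 to 15986 at day 0, 5792 to 8400 at day 14, 2168 to 2794 at day 20 and 1130 to 1201 at day 56, when Lum was below 50. Of 7 tested endothelium markers 4 were lower at day 56, with sums of 276 to 389, against 1688 to 2213 at day 0, and Cdh5, Tek, Tie1 and Flt1 were below 50 at day 56. Sertoli markers had 7 of 12 lower and 2 higher (3566 to 3670 at day 56, against 7662 to 8711 at day 0, with Amh and Inhbb below 50 at day 56). Leydig markers had 3 of 9 lower and 2 higher (2464 to 2651, against 3290 to 4475, with Insl3 below 50 at day 56). Myoid and smooth muscle markers had 3 of 7 lower and 1 higher (2018 to 2536, against 2185 to 3741), and limma called none of 6 tested macrophage markers (3 at an unadjusted p under 0.05, sums of 396 to 447, against 433 to 790.0).

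The somatic markers were counted in the single windows as well. At day 20 against day 14 Sertoli markers had 3 of 12 lower (median -0.72), and Leydig and myoid markers had 1 lower each (of 9 and of 7, medians -0.13 and -0.25). In that window limma called no endothelium or macrophage marker (medians -0.55 and -0.09), with 1 of 7 and 2 of 6 at an unadjusted p under 0.05. At day 35 against day 20, when Igfbp4 and Igfbp6 were called lower, no fibroblast, endothelium or macrophage marker was called by limma (medians -0.67, -0.27 and -0.19), with 4 of 7, 0 of 7 and 1 of 6 at an unadjusted p under 0.05. Leydig markers then had 2 of 9 higher and none lower (median 0.55), myoid markers 1 higher and 1 lower of 7 (median -0.43), and Sertoli markers 1 of 12 lower (median -0.41).

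Germ cell markers were called in both directions. Spermatogonium markers had 5 of 7 higher at day 8 against day 0, but 3 lower and 1 higher at day 20 against day 14 (median -0.91), when Igf1 and Igf1r were called lower. At day 20 against day 14, 4 of 7 spermatocyte markers were higher and 1 lower, with sums of 15607 to 19151 at day 20, against 4270 to 4383 at day 14. All 8 spermatid markers were higher at day 35 against day 20, with sums of 39267 to 43535, against 253 to 366. At day 35 against day 20 limma called no spermatogonium marker (4 of 7 at an unadjusted p under 0.05), and at day 56 against day 0 it called 3 of 7 higher and 2 lower. Of cells from outside the testis, 1 of 2 erythroid markers was lower, both tested adipocyte markers were higher and limma called none of 3 skeletal muscle markers (1 at an unadjusted p under 0.05). The part of these shifts in the values of the IGF system was not tested.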

How the data were processed

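Total RNA of whole testes was measured on 66 arrays, 22 of each of 3 types. The deposited values are 1 signal intensity per probe set and array, which per the labels the authors scaled to a mean of 125. With the outer 2% of values trimmed on both sides, array means were 125.0 to 125.1. The software is not given in the sources used here, and the number of arrays and the signal over the filter limit the precision. Of 36899 probe sets, 198 were controls, 29131 named 1 gene, 724 several and 6846 none.

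The scale of analysis was log2(signal + 16), for the 26941 probe sets that reached 50 on 2 or more of the 22 arrays of their type. A model of 11 day means was fitted per array type with limma 3.58.1 (lmFit, then eBayes with its trend option; R 4.3.3). Benjamini-Hochberg adjustment of the two-sided p-values covered all kept probe sets of a comparison, later day minus earlier day. The brightest probe set on average stood for a gene, and all others of the members are reported. For pathway and marker genes the other probe sets were not examined. The procedure was run on simulated data with independent noise on each array and most probe sets flat over days. Those data lack the shared deviations of same-numbered samples described below, so the run does not show how the tests behave with them. Values are given by sample, and changes with their SE. Every probe set of a member was named; pathway genes and the 3 genes with the most similar day means followed fixed lists and a rank rule. Members and lists were chosen with earlier results of these data known. Alternatives were other constants, filters, normalizations, spread models, 1 probe set per gene, a replicate block, a block within days 0 to 20 added after seeing the data, and leaving out each sample. With 2 samples a day, a test for outlying samples was not run.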

Additional observations from a re-analysis of the deposited data

How the results depend on the processing

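Counts of members here use the brightest probe set of each gene. The counts called at day 8 against day 0, day 14 against day 8, day 20 against day 14 and day 56 against day 35 were the same (0, 0, 2 and 0) under all 10 settings and with each of the 22 samples left out. The count by the F-test was 5 to 6 under the settings and 5 to 6 without single samples, and at day 56 against day 0 it was 5 to 6 and 4 to 6. Summed over the 10 comparisons with day 0 there were 28 calls, 24 to 32 under the settings and 22 to 30 without single samples. At day 35 against day 20 the count was 1 with 64 added to the signal, and 1 to 2 without single samples. Over neighbouring days it was 1 with no filter on signal, 1 with scaling of arrays to the type's median, 1 with eBayes without trend, 3 at most under any setting, and 1 to 2 without single samples. The direction of 1 named change turned: Igf1 at day 35 against day 20 was 0.023 without sample 1 of day 20 (adjusted p = 0.98), and -1.22, called, without sample 2. With both samples it was -0.60 and not called. Igf1, Igf1r, Igfbp3 and Igfbp4 were called lower at day 56 against day 0 in all of these. Scaling to the median moved the median change of all probe sets at day 20 against day 14 to 0.06, against -0.13, and the calls over all to 1875 higher and 984 lower, against 1425 and 1716; at day 56 against day 0 the median was -0.04, against -0.22. The causes were not tested.

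Differences between sample 1 and sample 2 correlated at r over 0.1 in 28, 34 and 23 of 55 pairs of days on types A, B and C. Not every pair passed that value, so the numbers were not taken to pair the samples in general. Within days 0 to 20, however, 26, 26 and 23 of 28 pairs did (median r 0.28, 0.23 and 0.14), so same-numbered samples of these days deviated together. With the sample number as a replicate block the counts were 6 by the F-test, 0, 0, 2, 2, 0 and 6 in the 6 windows (days 8 against 0, 14 against 8, 20 against 14, 35 against 20, 56 against 35 and 56 against 0), 2 over neighbouring days and 30 against day 0. A block within days 0 to 20 alone, chosen after seeing the data, gave the same counts but 32 against day 0. Signals under 50 limit Igfbp7 and the late days of Igfbp3 and Igfbp4. They also limit other probe sets, such as 115861_at of Igf1 and 116112_at of Igf1r at days 20 to 56. For 95546_g_at of Igf1 this holds at days 20 to 35.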
